A study of Drosophila melanogaster with 60 samples.

Results

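The genes described here are 39 neuropeptide receptor genes of Drosophila melanogaster, followed in CUT&RUN maps of H3K4me3 and of RNA polymerase II (RNAPolII) in male brains. They were chosen by name, with earlier results of these data known. A peak was assigned to a gene where it overlapped the Release 6 span of that gene, and the peak of highest mean over 30 libraries stands for the gene with each antibody. With H3K4me3, 37 of the 39 genes had a peak, 102 peaks in all of 14894, and AkhR and CapaR had none. With RNAPolII, 37 genes had 159 of 21113 peaks, and Dh44-R1 and ETHR had none. CUT&RUN maps such sites by directing a nuclease to the protein that an antibody has bound and sequencing the DNA released there.

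Neuropeptides are small secreted proteins that neurons and gland cells use as slow signals, and each acts through receptors on the cells that receive it. Nearly all these receptors belong to the G protein-coupled family, which passes the signal on through cyclic AMP, calcium or other second messengers, and the exception here is InR, the insulin receptor tyrosine kinase. In the fly brain they are known for setting hunger, sleep, courtship and aggression, and each is typically made in a limited set of neurons. H3K4me3, a trimethylated histone H3, marks the promoters of active genes, and RNAPolII is the enzyme that transcribes them.

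The mutants were Or47b (w+/Y; Or47b2/3;+/+), Or67d (w+/Y; +/+; Or67dGAL4/GAL4), fru (w+/Y; +/+; fruLexA/4-40) and dsx (w-/Y; +/+; dsxf00683-d07058/f01649-d09625), and the wild type was Canton-S (CS). Or47b and Or67d encode odorant receptors of pheromone-sensing neurons, and fru and dsx encode transcription factors of sexual differentiation. Flies of each genotype were single-housed (SH) or group-housed (GH), which gave 10 groups of 3 libraries with each antibody. Each library pooled 15 brains for H3K4me3 or 30 for RNAPolII, so a change in the number of cells with a signal and a change in signal per cell cannot be told apart. All 4 mutant comparisons share the 6 CS libraries of an antibody, and genotype and strain background cannot be told apart.

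The whole data set sets these limits. Reads in peaks per library were 2309386 to 9269525 for H3K4me3 and 3007711 to 6459322 for RNAPolII. The 9 neuron markers all had peaks with both antibodies, at a median of 127 per kb of peak for H3K4me3, while the lists for glia, photoreceptors, muscle, fat body and hemocytes had medians of 19.1 to 33.9 per kb and the glial marker repo had no H3K4me3 peak. With RNAPolII the neuron median was 104 per kb, those of the other lists were 41.9 to 53.8, and repo had a peak at 68.5. Single markers departed from the H3K4me3 medians. The neuron markers elav, VAChT and VGlut lay at 24.9, 33.7 and 49.3 per kb. The photoreceptor marker Rh4 lay at 587, Mef2 of muscle at 586, apolpp of fat body at 334 and Pxn of hemocytes at 214, each in a peak shared with other genes. Single markers departed from the RNAPolII medians too. The neuron markers Gad1 and VGlut lay at 41.1 and 42.4 per kb. The glial marker wrapper lay at 108, Mef2 at 89.1, Yp3 and Lsp2 of fat body at 87.4 and 81.4, and inaC of photoreceptors at 83.2. In dsx brains 12 of 14 RNAPolII peaks and 4 of 5 H3K4me3 peaks over dsx were below 5% of their CS mean, whereas over fru the lowest peak in fru brains kept 48.0% with RNAPolII and 42.9% with H3K4me3. Or47b had 1 RNAPolII peak, at 76.3% of CS in Or47b brains, and Or67d had no peak, so these alleles were not checked. With RNAPolII, 3 libraries (Or47b GH 3, Or47b SH 3 and Or67d GH 3) stood apart, with summed values of 4.12e+06 to 4.15e+06 against 3.59e+06 to 3.85e+06 in the other libraries. With H3K4me3, libraries differed in how far strong peaks stood above weak ones. This gap, the mean log2 value of the strongest 25% of peaks minus that of the weaker 50%, averaged 5.50 ± 0.39 in Or47b, 5.85 ± 0.16 in Or67d, 5.48 ± 0.34 in fru, 5.64 ± 0.22 in dsx and 5.27 ± 0.27 in CS (SD, n = 6 libraries each).

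The receptor genes carried little H3K4me3 for genes with a peak. Levels are means of the deposited scaled read counts over 30 libraries, divided by the length of the peak in kb so that genes can be set side by side. The median of the 37 genes was 58.0 per kb against 285 per kb over all 9578 genes with a peak, and 2 receptor genes lay above that all-gene median. These were CCHa1-R, a receptor of CCHamide-1 that acts in the clock network, at 435 per kb (2R:17664760-17666649), and SIFaR, the receptor of the SIFamide peptide that acts on feeding and courtship, at 329 per kb (3R:21293641-21294357). The CCHa1-R peak also lay over eIF3c, a translation initiation factor gene, and the share of each gene in it cannot be told apart.

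Far below these came ETHR, the receptor of ecdysis triggering hormone, at 144 per kb, sNPF-R, the receptor of short neuropeptide F, at 109 per kb, and CCKLR-17D1, a receptor of the satiety peptide drosulfakinin, at 107 per kb in a peak also over CG42302. The 5 lowest were Lgr3, the receptor of Ilp8, at 20.3 per kb, AstA-R2, a receptor of allatostatin A, at 21.9, RYa-R, the receptor of RYamides, at 25.5 in a peak also over TwdlC, InR at 26.2 and Lkr, the receptor of leucokinin, at 27.6. Neighbours at the low end of this order differed by less than their spread: the SD between libraries was 30.0% of the mean for Lgr3 and 37.6% for AstA-R2. SIFaR stood clear of ETHR, since its libraries ran from 182 to 310 in a peak of 716 bp, against 48.0 to 127 in a peak of 576 bp. Of the 37 strongest peaks, 31 covered an end of the gene span and 6 also lay over another gene. The peaks that covered no end were those of Lgr3, InR, Lkr, Pdfr, PK1-R and Proc-R, the receptor of proctolin. They lay inside the gene span, and whether they mark a promoter was not tested.

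RNAPolII levels were closer to those of other genes, with a median of 46.4 per kb over 37 receptor genes and 53.5 per kb over all 13222 genes with a peak, and 13 receptor genes lay above that of all genes. SIFaR again led, at 307 per kb (3R:21293593-21295232), higher than in 99.2% of all genes with a peak. AstA-R2 followed at 137 per kb (3R:28734985-28737136), then MsR1, a receptor of myosuppressin, at 102 (3L:2321094-2324150), AstC-R1, a receptor of allatostatin C, at 76.1, and CNMaR, the receptor of CNMamide, at 71.5 in a peak also over fry and CG18180. The lowest were FMRFaR, the receptor of FMRFamide peptides, at 30.9, Pdfr, the receptor of pigment dispersing factor through which clock neurons are synchronised, at 33.0, SPR, which binds sex peptide and myoinhibitory peptides, at 33.1, CCKLR-17D1 at 33.4 and Lgr4, a leucine-rich repeat receptor of the relaxin receptor type, at 34.4. In 20 of 37 genes the strongest RNAPolII peak lay over other genes too, among them FMRFaR, CCKLR-17D1 and Lgr4. Peaks could also reach past the gene span. Those of SIFaR, AstA-R2, CNMaR, FMRFaR and SPR lay mostly outside it, and those of MsR1, AstC-R1 and Lgr4 in part. The AstA-R2 span starts at 3R:28737109, so its peak touches only the edge of the gene.

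**Figure D1:**
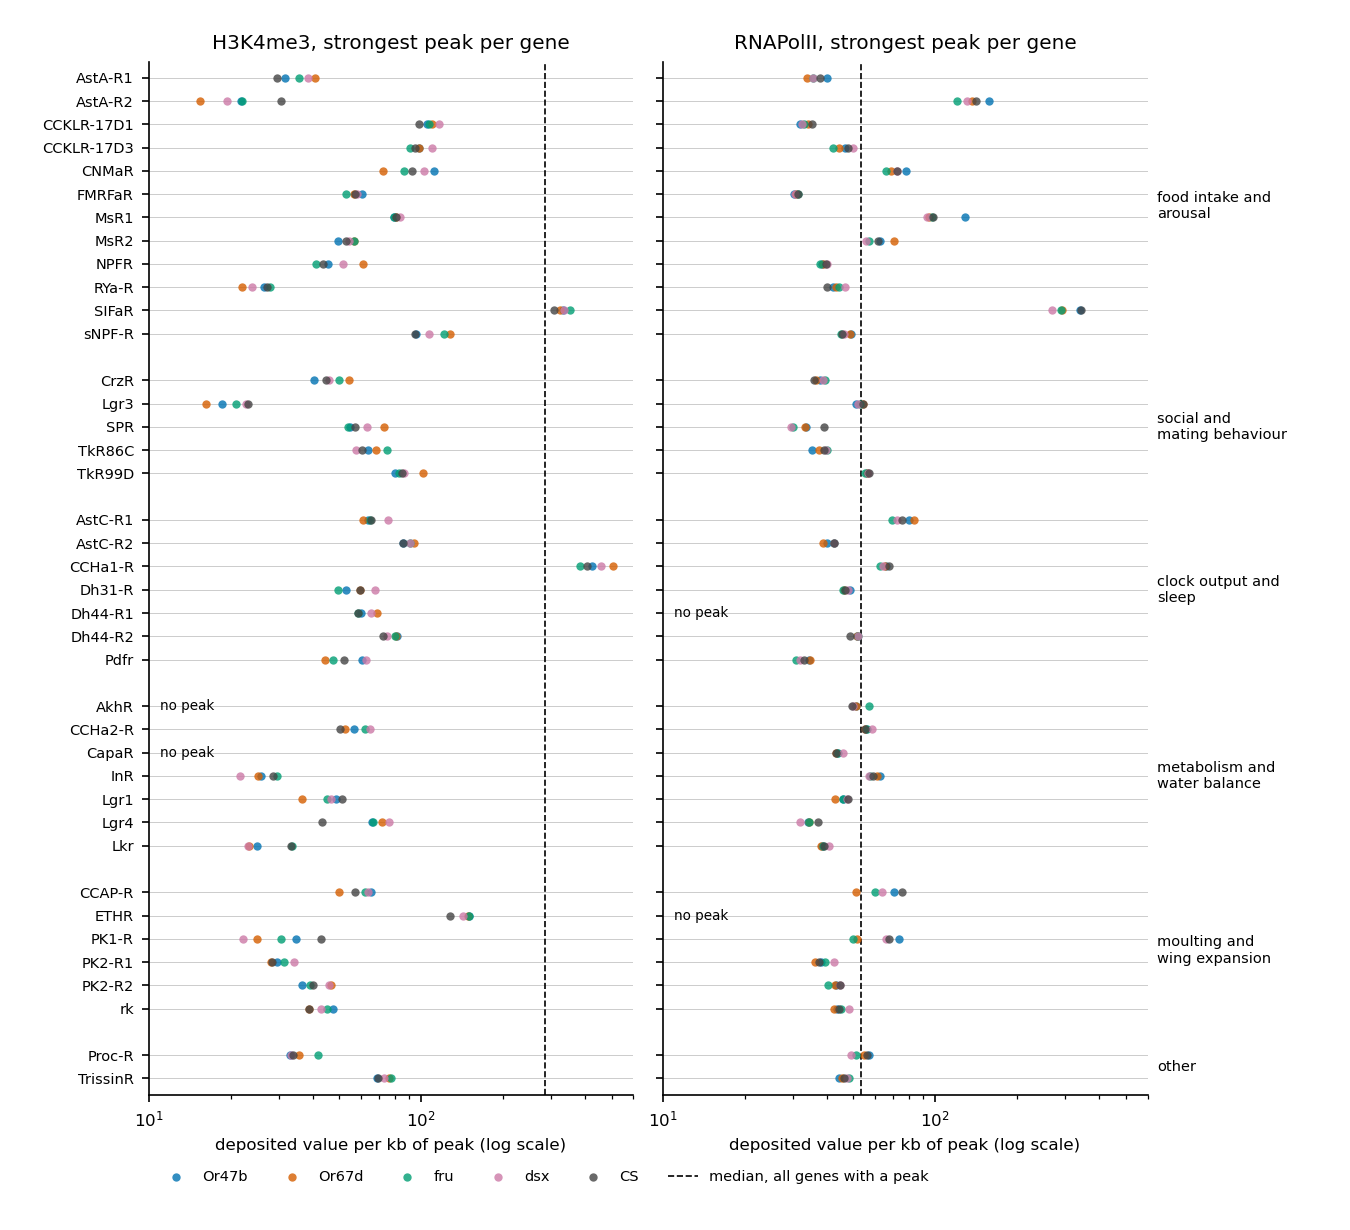
Mean deposited value per kb of the strongest peak over each receptor gene on a log axis, left for H3K4me3 and right for RNAPolII, with 1 point per genotype (6 libraries each) and a dashed line at the median of all genes with a peak. Nearly all H3K4me3 points lie left of the line, with CCHa1-R and SIFaR to its right, while the RNAPolII points gather around and left of it and SIFaR and AstA-R2 stand out. The RNAPolII peaks of SIFaR and AstA-R2 lie mostly outside the gene spans.

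The order of the genes differed between the antibodies. Over the 35 genes with both peaks, Spearman's rho of the levels per kb was 0.156 and Pearson's r of their log2 values was 0.321, as a description across genes of the same libraries, which are not independent. The strongest peaks of both antibodies overlapped in 19 of these genes. AstA-R2 was next to last with H3K4me3 and the second with RNAPolII, and its 2 strongest peaks did not overlap. They lay at opposite ends of the gene span, and the RNAPolII peak was mostly outside it. Between libraries the H3K4me3 values of the receptor genes had a median coefficient of variation of 18.2%, against 15.3% over all genes, and the RNAPolII values one of 9.12%, against 11.6%.

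Each receptor was assigned a single role. The median H3K4me3 level was 69.0 per kb in 12 receptors of food intake and arousal and 66.2 in 7 of clock output and sleep. It was 60.3 in 5 of social and mating behaviour, 45.6 in 5 of metabolism and water balance and 42.1 in 6 of moulting and wing expansion. The last group held ETHR, CCAP-R, rk and the pyrokinin receptors PK1-R, PK2-R1 and PK2-R2. The roles overlapped widely, with 21.9 to 329 per kb in receptors of food intake and arousal and 26.2 to 64.7 in those of metabolism and water balance, and no test was made between them. With RNAPolII the medians of the same roles were 46.6, 49.1, 38.3, 46.0 and 44.8 per kb, over 12, 6, 5, 7 and 5 genes.

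Of the 4 mutants, Or67d had the most receptor genes that differed from CS in H3K4me3. Changes are differences in log2(deposited value + 1) at the strongest peak, mutant minus CS over both housings, tested with limma across all peaks of the antibody at an adjusted p of 0.05. In Or67d brains 6 receptor genes were higher and 4 lower, 10 of 37 or 27.0%. Over all tested peaks 30% passed in this comparison, 17.5% higher and 12.5% lower, and over the strongest peaks of all genes 44.6% did, 33.8% higher and 10.8% lower, so the share among the receptor genes lay near and below those of peaks in general. Their median change was 0.08, against 0.16 over the strongest peaks of all genes and -0.06 over all tested peaks.

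Among receptors of food intake and arousal, 3 rose and 2 fell in Or67d brains. NPFR, the receptor of neuropeptide F (3R:6187172-6189578), had values of 124, 148 and 162 in Or67d libraries (lowest, median and highest of 6) and of 95.5, 102 and 118 in CS libraries. Every Or67d library was above every CS library, and the change was 0.48 ± 0.12 (SE, limma adjusted p = 0.0037). sNPF-R (3L:20087342-20089350) had 226, 248 and 309 in Or67d libraries and 157, 196 and 221 in CS libraries. Its libraries did not overlap either, with a change of 0.43 ± 0.11 (limma adjusted p = 0.0039). With quantile normalization it was 0.24 and did not pass (limma adjusted p = 0.079). AstA-R1, the other allatostatin A receptor (X:3574419-3576271), had 68.7, 77.4 and 79.2 in Or67d libraries and 45.7, 53.5 and 73.4 in CS libraries. Here 1 CS library, SH 3, reached into the Or67d range, and the change was 0.47 ± 0.15 (limma adjusted p = 0.015). AstA-R1 did not pass by edgeR (adjusted p = 0.12).

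The 2 that fell were AstA-R2 and CNMaR. AstA-R2 (3R:28743458-28744808) had 15.004, 21.6 and 23.4 in Or67d libraries and 22.0, 45.6 and 55.5 in CS libraries. The CS libraries were spread widely and the lowest of them lay inside the Or67d range, with a change of -0.90 ± 0.25 (limma adjusted p = 0.0060). With quantile normalization it was -0.66 and did not pass (limma adjusted p = 0.063). CNMaR (3L:9643664-9645833, also over fry) had 134, 154 and 198 in Or67d libraries and 170, 196 and 238 in CS libraries. The groups overlapped, and the change was -0.35 ± 0.12 (limma adjusted p = 0.020). It did not pass without CS GH 3, CS SH 2 or Or67d GH 2, with a limma adjusted p of up to 0.070.

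The other 5 genes that passed in Or67d brains were 3 that rose and 2 that fell. SPR (X:5446075-5448939) had 197, 209 and 224 in Or67d libraries and 126, 166 and 198 in CS libraries, a change of 0.36 ± 0.12 (limma adjusted p = 0.019). Its groups overlapped by a narrow margin, and the call was lost without CS GH 2 or CS SH 2, with a limma adjusted p of up to 0.12. SPR also did not pass with quantile normalization (0.22, limma adjusted p = 0.23), TMM rescaling (0.27, limma adjusted p = 0.053), edgeR (0.19, adjusted p = 0.23) or DESeq2 (0.25, adjusted p = 0.12). CCHa1-R, in the peak shared with eIF3c, had 850, 969 and 1044 in Or67d libraries and 680, 791 and 823 in CS libraries, without overlap, and a change of 0.32 ± 0.09 (limma adjusted p = 0.0051). At the strongest CCHa1-R peak over no other gene the sign was the opposite, -0.82 (limma adjusted p = 0.065). With quantile normalization the shared peak changed by 0.07 and did not pass (limma adjusted p = 0.43).

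Lgr4 (X:13188685-13189486) had 54.9, 58.0 and 58.8 in Or67d libraries and 27.4, 33.9 and 44.3 in CS libraries. The Or67d libraries were close together and all above CS, with a change of 0.73 ± 0.17 (limma adjusted p = 0.0020). Lgr1, the receptor of the Gpa2 and Gpb5 glycoprotein hormone (3R:17725581-17726324), had 13.6, 23.5 and 41.1 in Or67d libraries and 25.4, 39.7 and 46.5 in CS libraries. These overlapped over most of their range, and the change of -0.54 ± 0.21 (limma adjusted p = 0.042) no longer passed when any of 7 single libraries (CS GH 1, CS GH 2, CS SH 1, CS SH 3, Or67d GH 2, Or67d GH 3 and Or67d SH 3) was left out. Lgr1 also did not pass by edgeR (adjusted p = 0.089), DESeq2 (adjusted p = 0.10), quantile normalization (-0.29, limma adjusted p = 0.43) or a fit of only the libraries compared (limma adjusted p = 0.054). PK1-R, the pyrokinin-1 receptor (3R:14101960-14102621, inside the gene span), had 10.3, 14.9 and 26.4 in Or67d libraries and 23.7, 28.9 and 34.4 in CS libraries. Only the highest Or67d library reached the CS range, and the change was -0.81 ± 0.26 (limma adjusted p = 0.018, and 0.055 without Or67d GH 3). With quantile normalization it was -0.50 and did not pass (limma adjusted p = 0.21).

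**Figure D2:**
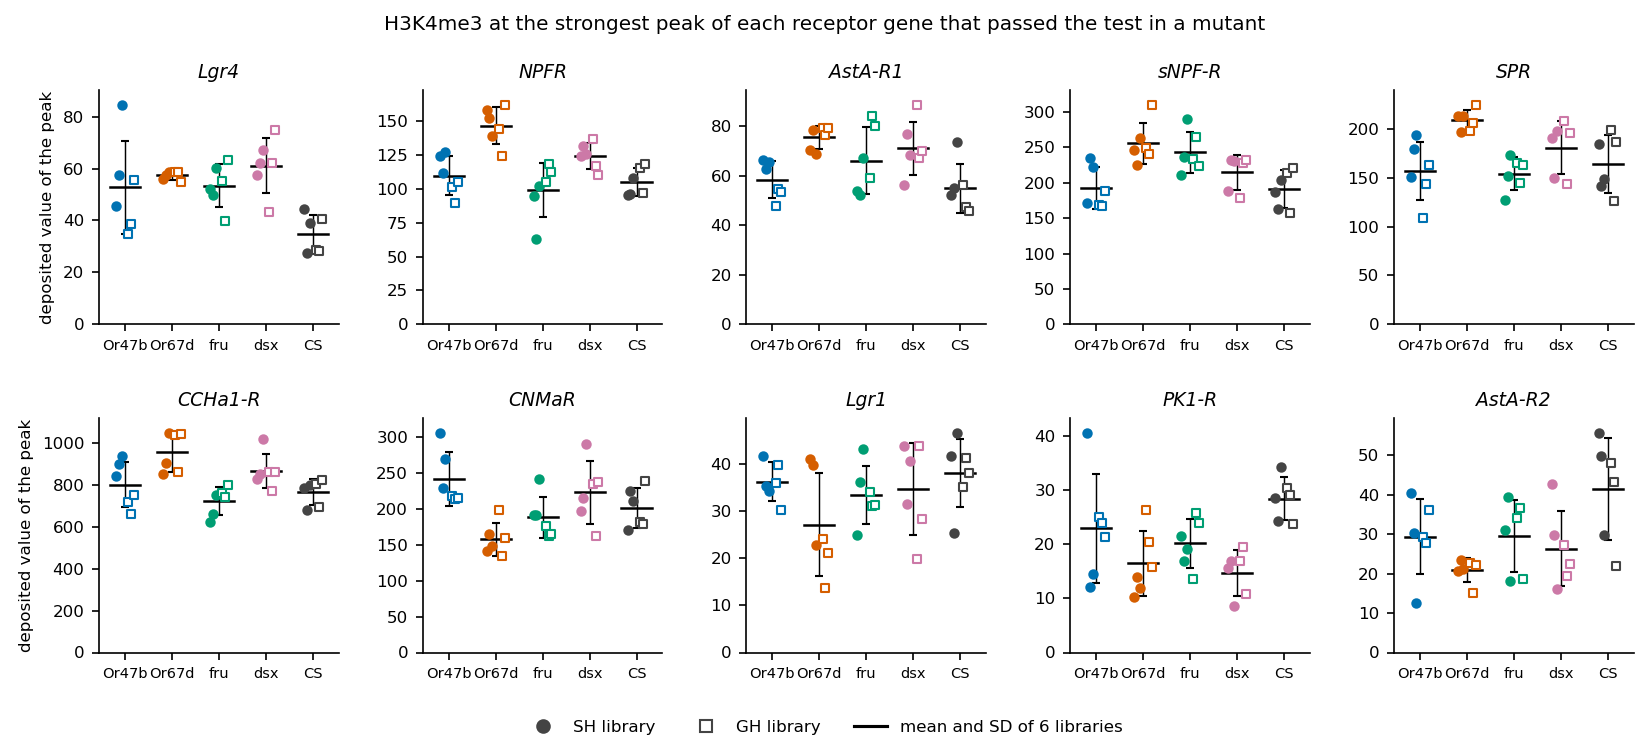
Deposited H3K4me3 value of the strongest peak in each library (filled circle SH, open square GH), with mean and SD of 6 libraries per genotype, for the 10 receptor genes that passed the limma test in at least 1 mutant. Lgr4 was lower in CS than in the 4 mutants on average, and PK1-R was higher in CS.

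Direction went with the strength of the peak over the data set as a whole. Over all tested peaks in 20 bins of mean value, the median change in Or67d brains was -0.47 in the weakest bin and 0.26 in the strongest. The gap between strong and weak peaks was 5.586 to 5.998 in Or67d libraries, against 4.92 to 5.73 in CS libraries. With that gap as a covariate, which moves with genotype here, 1 receptor gene passed, CNMaR at -0.56 (limma adjusted p = 0.0045). The other 9 did not pass, at -0.58 for Lgr1, 0.37 for NPFR, 0.36 for AstA-R1, -0.50 for PK1-R, 0.30 for Lgr4, 0.17 for sNPF-R, 0.11 for CCHa1-R, 0.07 for SPR and -0.18 for AstA-R2. The changes of AstA-R2, SPR, sNPF-R, CCHa1-R, Lgr4 and PK1-R thus shrank by more than 1.5 times with the covariate, and that of Lgr1 did not shrink. Relative to the median change of the 500 tested peaks nearest in mean value, CCHa1-R was 0.07 higher in Or67d brains and sNPF-R 0.24 higher, while Lgr4 was 0.92 higher, AstA-R1 0.57 higher, AstA-R2 lower by 0.59 (-0.59) and CNMaR lower by 0.52 (-0.52). Some cell type markers passed in the same comparison, in which 33.8% of the strongest peaks of all genes rose and 10.8% fell. Here 4 of 9 neuron markers rose, while 1 rose and 2 fell of 10 photoreceptor markers. Of 6 muscle markers 1 rose and 2 fell, and 1 rose and 1 fell each of 4 fat body and of 5 hemocyte markers. Whether any list differed from those shares was not tested. The summed neuron markers ranged from 7123 to 7982 in Or67d libraries and from 5477 to 7212 in CS libraries, the photoreceptor markers from 1539 to 1785 in Or67d and from 1389 to 1568 in CS, and the hemocyte markers from 485 to 574 in Or67d and from 420 to 498 in CS. The hemocyte sum is mostly Pxn, at a mean of 360 in a peak shared with 2 lncRNA genes, while the other 4 genes average 10.2 to 41.5 and the median change of the list is -0.26. The sums of the muscle markers were 1685 to 1964 in Or67d and 1506 to 1904 in CS, those of the fat body markers 712 to 863 in Or67d and 552 to 847 in CS, and those of the 6 glia markers, of which limma called none, 220 to 264 in Or67d and 227 to 310 in CS. The photoreceptor sum is mostly Rh4, at a mean of 1125 in a peak shared with sina, and the median change of that list is -0.38. The muscle sum is mostly Mef2, at 1601 in a peak shared with Pdrg1 and Pal1, with a list median of -0.53. The fat body sum is mostly apolpp, at 637 in a peak shared with Zyx, with a list median of -0.34. The list medians were 0.16 for neuron and -0.11 for glia markers. The hemocyte markers He and eater, the muscle markers up, wupA, bt and TpnC4 and the fat body markers Fbp2, Lsp2 and Yp3 had no H3K4me3 peak. Their part in the changes of the receptor genes was not tested.

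The weaker peaks within receptor genes moved down more than the strongest did in Or67d brains. Of the 62 other tested peaks over receptor genes, 14 fell and 0 rose by limma, where 12.5% of all tested peaks, weak and strong, fell. These 62 were weak, with a median mean value of 17.0, and the share that fell among peaks of like strength was not counted. The median change of the 62 was -0.40 and that of the peaks of like strength was -0.34. In NPFR a peak at 3R:6193267-6194311 averaged 16.5 ± 3.29 in Or67d and 36.1 ± 14.3 in CS (SD, n = 6 libraries each), a change of -1.03 (limma adjusted p = 0.0028), opposite in sign to that of its strongest peak. In CrzR, the corazonin receptor, the peak at 3L:12339712-12340535 averaged 14.4 ± 4.14 in Or67d and 33.2 ± 8.62 in CS, a change of -1.15 (limma adjusted p = 0.00056), while the strongest CrzR peak changed by 0.27 and did not pass. A weaker peak of sNPF-R (3L:20073730-20076024) changed by -0.65 (limma adjusted p = 0.0079), again against the sign of its strongest. Summed over all its peaks, NPFR changed by 0.16 and no longer passed (limma adjusted p = 0.18).

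**Figure D3:**
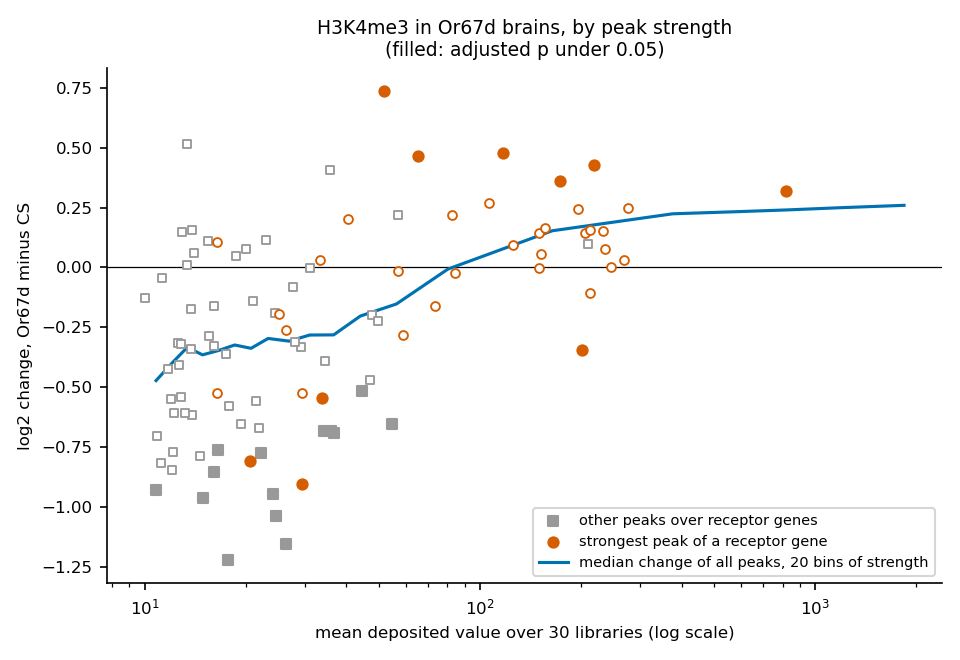
Change in H3K4me3 in Or67d brains (log2, Or67d minus CS) against mean deposited value on a log axis, for the strongest peak of each receptor gene (circles) and their other tested peaks (squares), filled where limma's adjusted p was under 0.05. The line, the median of all tested peaks in 20 bins, climbs from -0.47 to 0.26, and Lgr4 is the highest filled circle.

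In dsx brains 2 of 37 receptor genes passed with H3K4me3, Lgr4 higher and PK1-R lower, while 5.4% of all tested peaks passed, 3.42% higher and 1.98% lower, and 8.3% of the strongest peaks of all genes did, 5.86% higher and 2.45% lower. Lgr4 had 43.2, 62.1 and 74.8 in dsx libraries, against 27.4, 33.9 and 44.3 in CS libraries, with overlap in 1 dsx and 1 CS library, and changed by 0.81 ± 0.17 (limma adjusted p = 0.0016). PK1-R had 8.52, 16.3 and 19.5 in dsx libraries and 23.7, 28.9 and 34.4 in CS libraries. Every dsx library was below every CS library, and the change was -0.94 ± 0.26 (limma adjusted p = 0.022), which did not pass when CS GH 1, CS GH 2, CS SH 3, dsx GH 3 or dsx SH 3 was left out, with an adjusted p of up to 0.12. With quantile normalization it was -0.74 and did not pass (limma adjusted p = 0.063). A second SIFaR peak (3R:21287523-21290010) averaged 242 ± 31.5 in dsx and 186 ± 17.5 in CS (SD, n = 6 each) and rose by 0.37 (limma adjusted p = 0.029), and 3 weaker peaks, 2 over RYa-R and 1 over rk, the bursicon receptor, fell.

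In fru brains 1 of 37 receptor genes passed with H3K4me3, against 2.2% of all tested peaks, 1.26% higher and 0.944% lower, and 2.94% of the strongest peaks of all genes, 1.73% higher and 1.22% lower. It was Lgr4, with 39.8, 53.6 and 63.4 in fru libraries and the same CS values as above. The ranges overlapped in part, and the change was 0.62 ± 0.17 (limma adjusted p = 0.036). It did not pass by edgeR or DESeq2 on recovered reads (adjusted p = 0.27 and 0.20), or without any of CS GH 1, CS GH 2, CS SH 2, fru GH 1, fru GH 3 and fru SH 3, with an adjusted p of up to 0.19. PK1-R, the next in size, had 13.6, 20.4 and 25.8 in fru libraries and changed by -0.49 without passing.

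In Or47b brains no receptor gene passed with H3K4me3 by limma, edgeR or DESeq2, and 2 had an unadjusted p under 0.05, while 0.806% of all tested peaks passed. Lgr4 had 34.8, 50.5 and 84.3 in Or47b libraries and changed by 0.55 ± 0.17 (limma adjusted p = 0.15), and AstA-R2, with 12.5, 29.8 and 40.5, changed by -0.49. All 37 changes had a 95% interval within 1 log2 unit of 0. Lgr4 was thus higher on average in each mutant than in CS, with all 4 comparisons resting on the same 6 CS libraries. With the gap as a covariate its changes were 0.30 in Or67d, 0.46 in fru and 0.53 in dsx, and none passed. The strongest RNAPolII peak of Lgr4 did not overlap this H3K4me3 peak and also lay over Bap60 and CG12096. There the changes were -0.12 in Or47b, -0.11 in Or67d, -0.11 in fru and -0.22 in dsx, and none passed.

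Fewer receptor genes passed with RNAPolII. PK1-R was the one that did, in Or67d and in fru brains, where 1.08% and 1.04% of all tested peaks passed. The peak, 3R:14100504-14104432, holds the H3K4me3 peak of PK1-R. It had 179, 198 and 247 in Or67d libraries, 163, 189 and 261 in fru libraries and 232, 267 and 295 in CS libraries. In both mutants 1 library, Or67d GH 2 and fru SH 2, lay inside the CS range and the other 5 lay below it. The changes were -0.39 ± 0.10 in Or67d (limma adjusted p = 0.036) and -0.45 ± 0.10 in fru (limma adjusted p = 0.011). edgeR on recovered reads called neither (adjusted p = 0.21 and 0.070) and DESeq2 called that in fru (adjusted p = 0.042). In Or67d the call was lost without any 1 of 9 libraries (CS GH 1, GH 2, GH 3, SH 1 and SH 2, and Or67d GH 1, GH 3, SH 1 and SH 3), with a limma adjusted p of up to 0.12, and in fru without fru SH 1 (limma adjusted p = 0.061). PK1-R had 263, 278 and 324 in Or47b libraries and 220, 252 and 312 in dsx libraries, which overlapped with CS, so in dsx brains its H3K4me3 passed as lower and its RNAPolII did not pass (change -0.05).

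No receptor gene passed with RNAPolII in Or47b or dsx brains by limma, edgeR or DESeq2, where 2 and 4 had an unadjusted p under 0.05 and 0.56% and 1.84% of all tested peaks passed, the share in dsx being 0.954% higher and 0.883% lower. The SPR peak (X:5440953-5447339) lay mostly outside the gene, whose span starts at X:5446656. At this peak SPR had 162, 180 and 247 in dsx libraries, 184, 189 and 202 in fru libraries and 207, 239 and 309 in CS libraries. The fru libraries all lay below CS and the dsx libraries did so except for 1, with changes of -0.37 ± 0.12 in fru (limma adjusted p = 0.17) and -0.40 ± 0.12 in dsx (limma adjusted p = 0.082). In a fit without the 3 libraries that stood apart, of which none is fru, dsx or CS, both passed (limma adjusted p = 0.017 in fru and 0.0043 in dsx), with the same changes and a smaller SE of 0.09. With RNAPolII the gap averaged 3.68 ± 0.13 in Or47b, 3.64 ± 0.10 in Or67d, 3.59 ± 0.05 in fru, 3.57 ± 0.05 in dsx and 3.68 ± 0.08 in CS (SD, n = 6 libraries each). It thus moves in part with genotype here too. With the gap as a covariate the changes of SPR were -0.21 in fru (limma adjusted p = 0.24) and -0.20 in dsx (limma adjusted p = 0.29). In Or67d and Or47b brains SPR changed by -0.25 and -0.23, and by -0.36 in both without those libraries, which passed in Or67d (limma adjusted p = 0.033) and not in Or47b (0.099).

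CCAP-R, the receptor of crustacean cardioactive peptide, SIFaR and MsR1 had the other large RNAPolII changes. CCAP-R had 66.0, 75.8 and 106 in Or67d libraries and 81.8, 118 and 137 in CS libraries. The change of -0.55 ± 0.16 did not pass (limma adjusted p = 0.12), and it passed without the 3 libraries at -0.66 (limma adjusted p = 0.00094) and with the gap as a covariate at -0.45 (limma adjusted p = 0.0089). SIFaR had 392, 437 and 476 in dsx libraries and 438, 551 and 722 in CS libraries, a change of -0.34 ± 0.15 (limma adjusted p = 0.26, and 0.023 without the 3 libraries), and of -0.01 with the gap as a covariate (limma adjusted p = 0.97). MsR1 had 273, 330 and 560 in Or47b libraries and 270, 285 and 374 in CS libraries, with Or47b GH 3 and SH 3 far above the rest. Its change of 0.34 ± 0.16 (limma adjusted p = 0.65) shrank to 0.06 without the 3 libraries, and with the gap as a covariate it was 0.35 and passed (limma adjusted p = 0.0026).

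**Figure D4:**
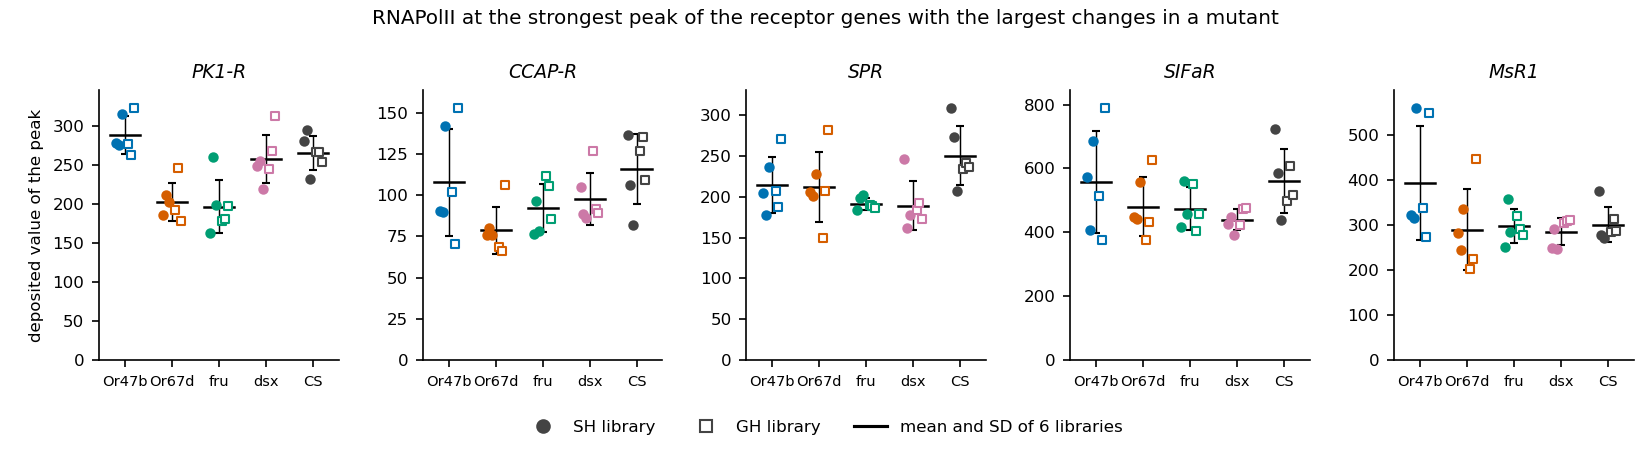
Deposited RNAPolII value of the strongest peak in each library (filled circle SH, open square GH), with mean and SD of 6 libraries per genotype, for the 5 receptor genes with the largest changes in a mutant. PK1-R is low in Or67d and fru apart from 1 library in each, and MsR1 is high in 2 Or47b libraries.

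Among the other RNAPolII peaks over receptor genes, 122 in all, 1 passed in Or67d and 1 in dsx, where 1.08% and 1.84% of all tested peaks passed. A peak of AstA-R1 (X:3657441-3658602) averaged 25.3 ± 6.56 in Or67d and 39.8 ± 5.44 in CS (SD, n = 6 each) and fell by 0.66 on the log2 scale (limma adjusted p = 0.040). A peak over RYa-R and CG6277 averaged 83.4 ± 9.16 in dsx and 59.2 ± 12.0 in CS and rose by 0.51 (limma adjusted p = 0.042). The strongest peaks of these genes did not pass in those comparisons.

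By role, the H3K4me3 calls in Or67d brains fell on 5 of 12 receptors of food intake and arousal, 1 of 5 of social and mating behaviour, 1 of 7 of clock output and sleep, 2 of 5 of metabolism and water balance and 1 of 6 of moulting and wing expansion, where 44.6% of the strongest peaks of all genes passed. The median changes of these roles there were 0.05, 0.25, 0.15, -0.19 and 0.01. The 2 receptors of allatostatin A moved in opposite directions there, AstA-R1 up and AstA-R2 down, and the difference between the 2 changes was not tested. Of the 2 receptors with no H3K4me3 peak, AkhR, the receptor of adipokinetic hormone, and CapaR, the receptor of capability peptides, neither passed with RNAPolII in a mutant. ETHR and Dh44-R1, a diuretic hormone receptor, had H3K4me3 peaks only, and neither passed in a mutant.

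**Figure D5:**
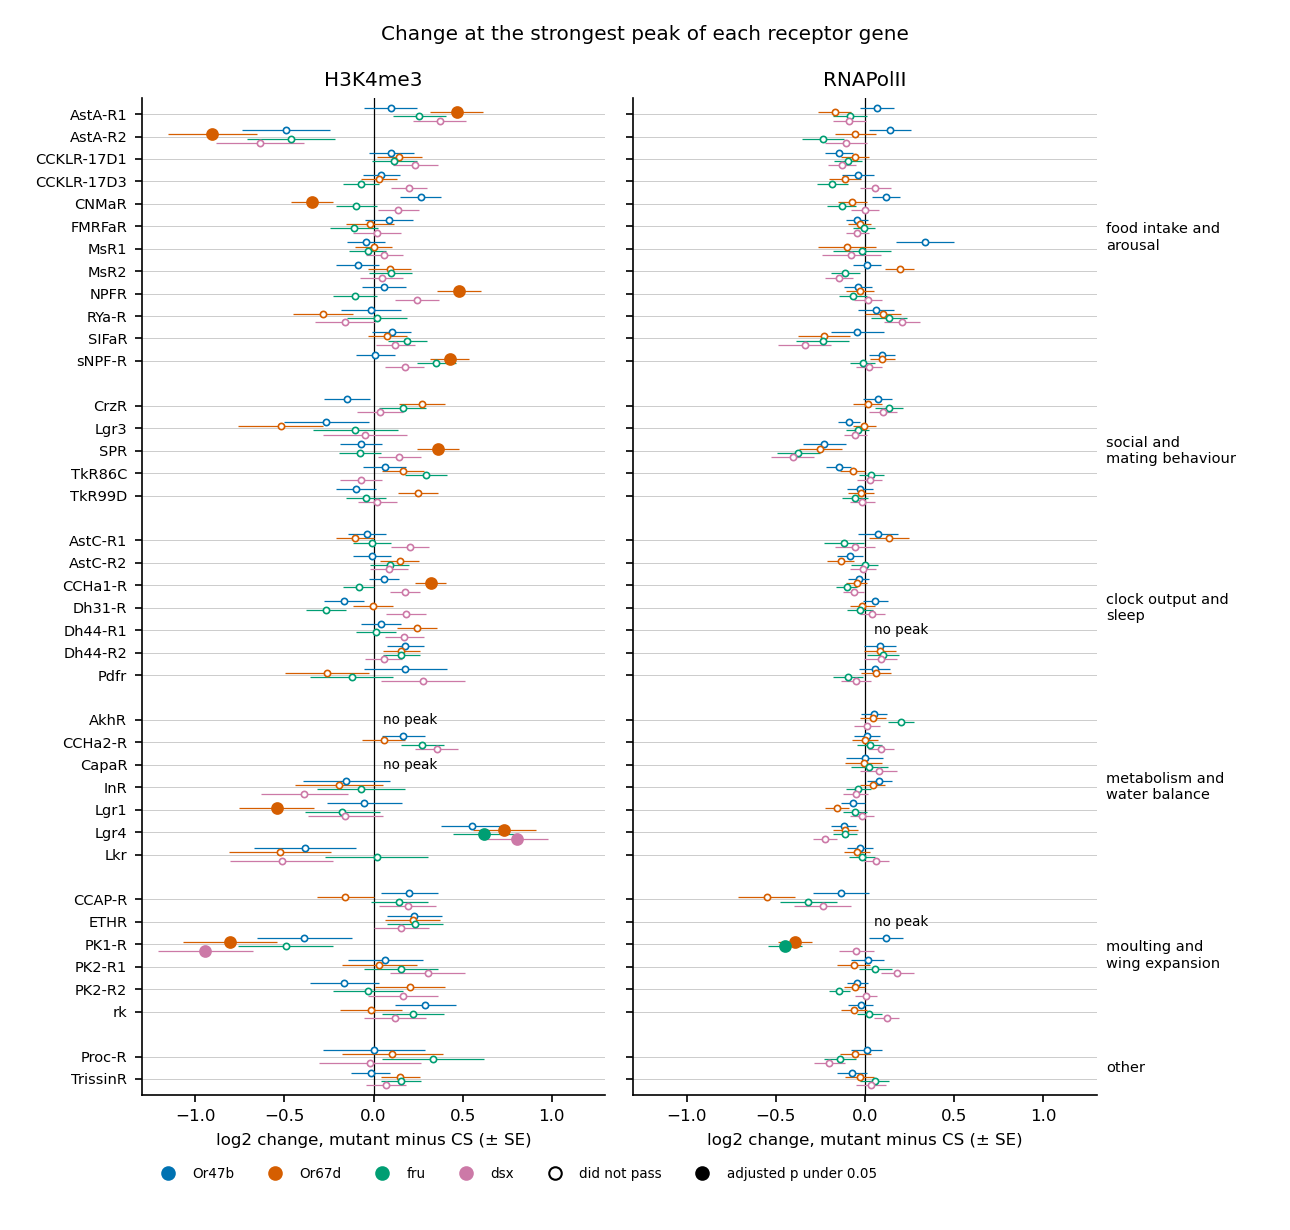
Change at the strongest peak of each receptor gene (log2, mutant minus CS, ± SE; 6 libraries on each side), left for H3K4me3 and right for RNAPolII, with genes ordered by role and filled points where limma's adjusted p was under 0.05. Lgr4 lies to the right of 0 in all 4 mutants with H3K4me3, and the RNAPolII points lie closer to 0 than the H3K4me3 points.

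Housing alone moved no receptor gene past the test. In SH minus GH over all 5 genotypes, 0 of 37 passed by limma, edgeR or DESeq2 with each antibody, where 0% of all tested peaks passed, and 3 with H3K4me3 and 0 with RNAPolII had an unadjusted p under 0.05. The H3K4me3 changes ran from -0.24 to 0.31 and the RNAPolII changes from -0.12 to 0.07, and all 37 intervals with each antibody lay within 1 log2 unit of 0. The median SE of these changes was 0.08 with H3K4me3 and 0.05 with RNAPolII.

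Within single genotypes, with 3 libraries on each side, limma and edgeR again called none of 185 H3K4me3 and 185 RNAPolII values, and 13 and 1 had an unadjusted p under 0.05. In Or47b 0.0345% of all H3K4me3 peaks passed, and in each other case 0% did. The H3K4me3 changes reached -0.73 and 0.78, with 168 of 185 intervals within 1 log2 unit, and the intervals of the other 17 reached past it.

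In Or47b brains, MsR1 averaged 278 ± 32.8 in SH and 204 ± 15.8 in GH (H3K4me3, SD, n = 3 libraries each), CCHa1-R 891 ± 49.3 in SH and 709 ± 46.2 in GH, and AstC-R2, an allatostatin C receptor, 223 ± 25.3 in SH and 172 ± 14.5 in GH. In all 3 genes each SH library lay above each GH library, with changes of 0.44, 0.33 and 0.38 (limma adjusted p = 0.10, 0.11 and 0.13). DESeq2 on recovered reads called CCHa1-R (adjusted p = 0.044). The gap between strong and weak peaks was also larger in these libraries, 5.52 to 6.09 in Or47b SH and 5.03 to 5.43 in Or47b GH, and with it as a covariate the changes were 0.27, 0.12 and 0.17. These genes were chosen after their values were seen. In this comparison 7 of 37 receptor genes and 3823 of 14513 tested peaks had an unadjusted p under 0.05. The median change over the strongest peaks of all genes was 0.20. How many of all peaks had no overlap between SH and GH libraries was not counted.

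The housing effect of a mutant minus that of CS passed in 0 of 148 values with each antibody by limma and edgeR, where 0% of all tested peaks passed, and 4 with H3K4me3 and 0 with RNAPolII had an unadjusted p under 0.05. DESeq2 called 2 with H3K4me3, CCHa1-R and TkR99D, a tachykinin receptor. The 0% of all tested peaks is from limma, and the share that DESeq2 called is not given. The median SE of these differences was 0.25 with H3K4me3, so they are the least precise of the comparisons.

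The genes of the receptors' ligands were counted in the same way. Of 41 genes of neuropeptide ligands, 18 had an H3K4me3 peak and 17 were tested, and in Or67d brains 1 rose and 1 fell, at a median change of -0.29, where 33.8% of the strongest peaks of all genes rose and 10.8% fell. Gpb5, a subunit of the hormone that Lgr1 binds, averaged 1453 ± 106 in Or67d and 1131 ± 138 in CS in a peak shared with Tim23, and rose by 0.37 (limma adjusted p = 0.0016). natalisin, the ligand of TkR86C, averaged 11.4 ± 4.77 in Or67d and 19.9 ± 5.83 in CS in a peak shared with cv-c, and fell by 0.86 on the log2 scale (limma adjusted p = 0.031). The median changes of the ligand genes were -0.07 in Or47b, -0.14 in fru and -0.14 in dsx. With RNAPolII 1 of 33 passed, CCHa2 in dsx, where 1.84% of all tested peaks passed. CCHa2 averaged 393 ± 32.3 in dsx and 324 ± 7.49 in CS in a peak over 3 other genes too, a rise of 0.28 (limma adjusted p = 0.012), while its receptor CCHa2-R did not pass.

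Next came the genes that carry the receptor signal inside the cell. In Or67d brains 33.8% of the strongest peaks of all genes rose, at a median change of 0.16 over these peaks, and whether the 2 lists below differ from that was not tested. Of 29 tested genes of G proteins and second messengers, 15 rose and 0 fell with H3K4me3 in Or67d brains, at a median change of 0.26, among them Gprk1, a receptor kinase (0.49), Epac, a cyclic AMP sensor (0.40), Ac76E, an adenylyl cyclase (0.37), and CrebB, a cyclic AMP responsive transcription factor (0.33). In this comparison the median change in the strongest bin of peaks was 0.26 too. In dsx, where 5.86% of the strongest peaks of all genes rose, 1 of the 29 did, Ggamma1, a G protein subunit, at 0.31 in a peak shared with 3 genes, and in fru, where 1.73% rose, 1 did, Gprk1 at 0.38. Of 16 genes of insulin signalling, 9 rose and 0 fell in Or67d, with Lnk, an adaptor (0.46), Tsc1, an inhibitor of the TOR pathway (0.42), Rheb, its activator (0.35), and Akt, a kinase (0.32), and 5 rose in dsx, with Lnk (0.37), S6k (0.32), Tsc1 (0.31) and gig (0.30). Their receptor InR, at a weak peak inside its gene span, changed by -0.19 in Or67d and -0.39 in dsx and passed in neither.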

How the data were processed

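CUT&RUN signal was measured in 60 libraries of male brains, 3 biological replicates per genotype, housing and antibody per the labels. The deposited values are a signal, reads per peak that the authors had scaled by 1 factor per library, which the values themselves show, in 1 table per antibody. The submitters' processing notes name MACS2, Bowtie2, ChIPseeker, Trim Galore and DESeq2 with no version, and no source used here gives the build of the peaks. Gene spans and names came from the RefSeq table of Release 6 plus ISO1 MT. Whole reads were recovered from the steps between low values (tolerance 0.01), except in 6 libraries left out of the count tests.

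Peaks with a mean of at least 10 were tested on log2(value + 1) with limma 3.58.1 (10 group means, mean trend, R 4.3.3), two-sided, with Benjamini-Hochberg adjustment over all tested peaks of a comparison at 0.05. Alternatives used edgeR 4.0.16 and DESeq2 1.42.0 on recovered reads, other scalings, pseudocounts, filters and peak choices, and fits without single libraries; the fit was tested on simulated data. The members and lists were chosen with earlier results of these data known. Genes are named where their strongest peak passed, where they were among the 5 highest or 5 lowest per kb, where they had 1 of the 2 largest changes in a mutant, or where they had no peak; genes of the ligand, G protein and insulin lists are named where they passed, at most 4 per comparison. Other peaks of a receptor gene, and changes beside these rules, were chosen after their values were seen. Values of p measure the spread between libraries, and no molecular identifiers are mentioned in the labels, so read depth covers counting error only.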

Additional observations from a re-analysis of the deposited data

Results flagged for a closer look

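Among 55 sets of 6 libraries of 1 genotype, 5 held a library far from the other 5 by Dixon's criterion, which chance passes in about 1 of 20 sets. With H3K4me3, AstA-R1 was 73.4 in CS SH 3, against 45.7 to 56.0 in the other CS libraries. AstA-R2 was 15.004 in Or67d GH 2, against 20.5 to 23.4 in the other Or67d libraries. CCHa1-R was 1018 in dsx SH 3, against 771 to 861 in the other dsx libraries, and CNMaR was 241 in fru SH 3, against 162 to 191 in the other fru libraries. With RNAPolII, PK1-R was 261 in fru SH 2, against 163 to 199 in the other fru libraries.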

How the results depend on the processing

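Of 196 values for the 15 changes that passed, 161 kept their direction and call under the other settings, 34 lost the call and 1 changed sign: CCHa1-R in Or67d brains, at -0.82 in its strongest H3K4me3 peak over no other gene. The cause was not tested.

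With H3K4me3 the gap covariate gave 1 call in Or67d and 0 in fru and dsx, quantile normalization gave 5 in Or67d and 3 in fru, and TMM rescaling gave 2 in fru. In fru, edgeR, DESeq2 and a fit of only the libraries compared each gave 0. Sums over all peaks gave 4 in dsx. DESeq2 gave 1 housing call within genotypes and 2 for the difference in housing effect. With RNAPolII, the gap covariate gave 1 in Or47b and 3 in Or67d. In Or67d edgeR, DESeq2 and sums over all peaks gave 0, and in fru edgeR gave 0. A fit of only the libraries compared gave 2 in fru and 2 in dsx. Without the 3 libraries that stood apart, a setting chosen after seeing the data, 3 passed in Or67d, 2 in fru and 2 in dsx. The shares of all tested peaks that passed under the settings of this section are not given. The counts here therefore cannot be set against peaks in general.

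With the replicate number as a block, H3K4me3 calls were 1 in Or47b, 2 in fru, 4 in dsx and 3 for housing within genotypes, which were MsR1, CCHa1-R and AstC-R2 in Or47b (limma adjusted p = 0.019, 0.018 and 0.045). The labels tie the numbers to no shared batch. The CS libraries carry other numbers in the deposited values than in their titles, and the numbers of the titles are used here. The match of CS numbers to those of the mutants is therefore uncertain. Of 135 same-numbered pairs, 48 with H3K4me3 and 19 with RNAPolII correlated above 0.1, and 17 of 30 H3K4me3 and 12 of 30 RNAPolII libraries correlated best with their own number, a hint from the data and not from the design. The numbers were therefore not taken as pairs.

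Leaving out 1 library gave 8 to 12 H3K4me3 calls in Or67d, 0 to 2 in fru and 1 to 4 in dsx, and 0 to 1 RNAPolII calls in Or67d, 0 to 1 in fru and 0 to 2 in dsx. The other counts were 0 in all of these fits. Values near 10 to 30, as for PK1-R, AstA-R2 and Lgr1 with H3K4me3, rest on few reads.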
